A study of Mus musculus with 2 samples.

Results

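Transcripts of the oxidative phosphorylation machinery were measured in single cells of KPCY 6419c5, a mouse pancreatic ductal adenocarcinoma line. The members were the features whose symbols begin with mt-Nd, mt-Co, mt-Atp, mt-Cytb, Nduf, Uqcr or Atp5, or Cox followed by a digit from 4 to 8, together with Sdha to Sdhd and Cycs. They numbered 111 of the 33696 features of the library. Of these, 13 were encoded in mitochondrial DNA and 98 in the nucleus. A UMI (unique molecular identifier, a tag that marks 1 captured RNA molecule) was seen for 106 members in the cells compared.

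The library pooled clones 76 and 84 at a ratio of 1:1 after 19 days of editing. Both clones carried BASELINE, a lineage-tracing system, and had been transfected with Cas12a-ABE, an adenine base editor built on Cas12a, before single cells were sorted and grown. The series lists another pool, made from clones 1, 32, 33, 52 and 76 and also edited for 19 days, that is not analysed here. No label of a cell's clone was used, so cells were sorted by marker genes into A cells (Pde10a, Plcb1, Galnt18, Arhgap15 and Ceacam1) and B cells (S100a7a, Rgs20, Hs6st2, Ccbe1, Ctse and Mal). A cell needed at least 2 UMIs of its own markers and at least 3 times the UMIs of the other set. Which of A and B is clone 76 and which is clone 84 is not known here. Both types share the line, the editor, the culture time and the library, and each clone grew from 1 sorted cell. There is therefore 1 sample a group. No test was possible, and cells are not replicates.

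Of 22178 barcodes, 21361 passed the cell filter. They included 7816 A cells, 8936 B cells and 4609 cells that met neither rule. The A cells held 40272805 UMIs and the B cells 52771426, with medians of 4699.5 and 5440.5 UMIs a cell. Levels are CPM, the summed counts of a group scaled to a fixed total of UMIs. Intervals are at 95%, exact, and cover counting error only. The epithelial marker list summed to 2773 CPM in A and 7892 CPM in B, the mesenchymal list to 3082 and 3277 CPM. Mesenchymal genes differed both ways, from Cdh2 at 27.2 and 199 CPM to Fn1 at 167 and 17.9 CPM. Both types held keratin transcripts, with all 6 epithelial markers of at least 50 CPM lower in A. Immune, acinar, endocrine and erythroid lists each summed to 13.7 CPM or less in either type, and endothelial markers to 38.6 CPM in A and 8.81 CPM in B. Kdr was at 0 UMIs in both, and Egfl7 made up most of the endothelial sum. The fibroblast list gave 146 CPM in A and 6.82 CPM in B, of which Acta2 was 144 and 5.89 CPM, while Col1a2, Dcn and Lum were at 0 UMIs in both.

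Oxidative phosphorylation takes electrons from NADH at complex I and from succinate at complex II, passes them through ubiquinone, complex III and cytochrome c to oxygen at complex IV, and uses the proton gradient made on the way to turn complex V, the ATP synthase. The subunits come from both genomes. Mitochondrial DNA is transcribed as long strands that are cut into single messages, while the nuclear genes lie scattered over the chromosomes, and their proteins are imported into the organelle. Pancreatic cancer cells use respiration alongside glycolysis, and their dependence on it varies between lines and states.

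The mitochondrially encoded members were higher in A cells and the nuclear ones were close to level. The 13 mitochondrial genes summed to 32406 CPM (32351 to 32462) in A and 19289 CPM (19252 to 19327) in B, a ratio of 1.68 (1.676 to 1.684). The 98 nuclear genes summed to 27163 CPM (27112 to 27214) in A and 26446 CPM (26402 to 26490.3) in B, a ratio of 1.03 (1.02 to 1.03). The genome of origin thus went with the size of the difference, more than the complex did. Against the median of all 3908 features with at least 50 CPM in A or B, which itself lay at 0.11 (log2, A over B), the nuclear sum was below even, at 0.954, and the mitochondrial sum was at 1.56. That median corresponds to a ratio of 1.08, so any A over B ratio given below that lies between 1 and 1.08 turns below even when centred.

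The same difference was seen cell by cell. In A cells, mitochondrial members took a median of 3.19% of a cell's UMIs, with 2.21% at the 5th and 4.59% at the 95th percentile. In B cells the median was 1.89%, with 1.33% and 2.66% at the same percentiles. The ranges overlapped in part. Of A cells, 97.7% lay above the B median and 82.0% above the B 95th percentile. Of B cells, 1.37% lay above the A median and 79.2% lay below the A 5th percentile. The nuclear members took medians of 2.70% in A and 2.60% in B, and 61.0% of A cells lay above the B median for them. In UMIs, the median A cell held 151 mitochondrial and 127 nuclear member UMIs, and the median B cell 104 and 141. Mitochondrial UMIs outnumbered nuclear ones in 6078 A cells, or 77.8% (76.8 to 78.7%), and in 652 B cells, or 7.30% (6.77 to 7.86%). UMIs are tags near the 3′ end and are not scaled by length, so this balance is given only to compare A with B.

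**Figure D1:**
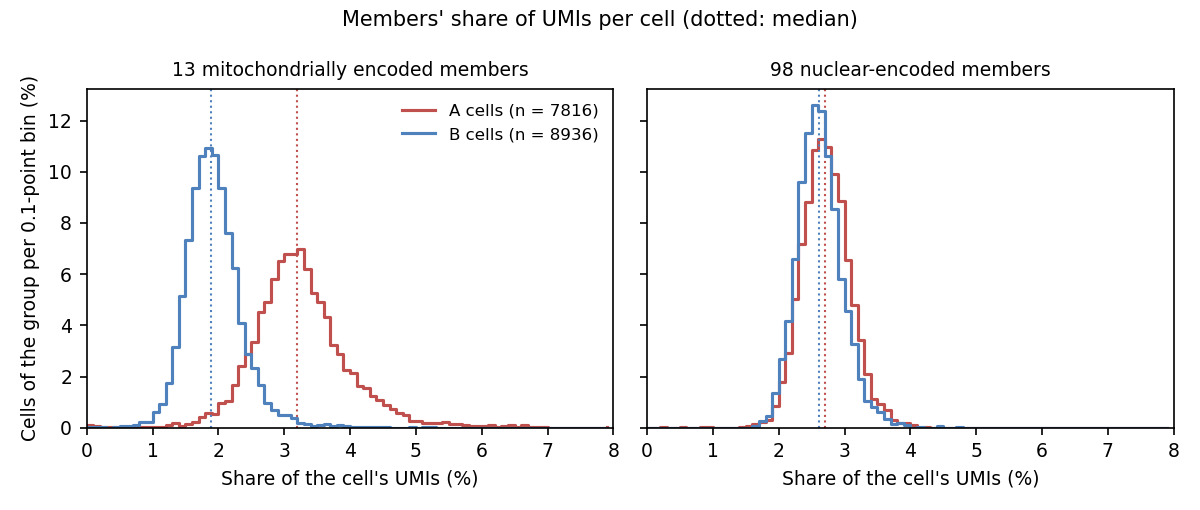
Share of each cell's UMIs (x axis, percent) taken by the mitochondrially encoded members and by the nuclear members, as the percent of cells (y axis) in each bin for A (red) and B (blue) cells, with dotted lines at the medians. The axis ends at 8%, which leaves out 32 A and 2 B cells on the mitochondrial side. The mitochondrial distributions sit around medians of 3.19% in A and 1.89% in B, while the nuclear ones, at 2.70% and 2.60%, lie almost on each other.

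Few cells lay far out on either side. A mitochondrial share over 5% was seen in 217 A cells (2.78%) and 16 B cells (0.179%), and a share under 1% in 34 A cells (0.435%) and 74 B cells (0.828%). Cells over 5% were shallower, with medians of 3859 UMIs in A and 3426.5 in B. Their UMIs held more Malat1, a nuclear-retained RNA, at 1.83% in A and 1.67% in B against 0.764% and 0.729% over all A and all B cells. Cells under 1% also held more of it in A, at 1.23%, but not in B, at 0.736%. Between 1% and 5%, where 96.8% of A and 99.0% of B cells lay, Malat1 took 0.736% in A and 0.728% in B.

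Values that could move with the mitochondrial share were set beside it. Nuclear-retained transcripts (Malat1, Neat1, Meg3, Kcnq1ot1 and Xist) summed to 8991 CPM in A and 8255 CPM in B. All 4 of them with at least 50 CPM were higher in A, with a median of 0.39 (log2), from Malat1 at 0.07 to Kcnq1ot1 at 0.98. Their part in the mitochondrial difference was not tested. Early stress genes summed to 531 and 542 CPM, but single genes were not level. The 3 with at least 50 CPM ran from -1.91 to 1.22 (log2), 2 higher in A and 1 higher in B. Cytosolic ribosomal proteins summed to 193982 and 200656 CPM. Depth differed, with A cells the shallower. From the lowest to the highest quartile of UMIs per cell, the mitochondrial ratio was 1.70 (1.69 to 1.71), 1.68, 1.67 and 1.64 (1.637 to 1.651), and the nuclear ratio 1.04, 1.04, 1.03 and 1.01. Both ratios were thus lowest in the deepest quartile. The part of fibroblast and endothelial markers, which were higher in A, in the difference was not tested.

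Complex I, the NADH dehydrogenase, carries 7 mitochondrial subunits that form the proton-pumping membrane arm. They summed to 9937 CPM (9907 to 9968) in A and 5822 CPM (5801 to 5842) in B, a ratio of 1.71. mt-Nd5, the antiporter-like subunit at the far end of the arm, was at 790 CPM (781 to 799) in A and 363 CPM (358 to 368) in B, 2.18-fold higher in A (2.14 to 2.22). It had the highest ratio of the 13 mitochondrial members.

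Among the other complex I genes of the mitochondrial genome, mt-Nd4l, a small membrane subunit, was at 644 CPM in A and 312 CPM in B, a ratio of 2.06 (2.02 to 2.10). mt-Nd2, another antiporter-like subunit, was at 2039.9 and 1140.5 CPM, a ratio of 1.79 (1.77 to 1.81). mt-Nd4, the third of the antiporter-like subunits, was at 2747 and 1571 CPM, a ratio of 1.75 (1.73 to 1.76). These lie above the ratio of the sum, and the remaining complex I genes lie below it. mt-Nd3, a small subunit where the membrane arm meets the matrix arm, was at 408 and 245 CPM, a ratio of 1.67 (1.63 to 1.70). mt-Nd1, which helps form the ubiquinone channel, was at 3291 and 2177 CPM, a ratio of 1.51 (1.5002 to 1.524). mt-Nd6 is the only mitochondrial protein gene on the light strand, and its 17.5 CPM (16.2 to 18.8) in A and 13.2 CPM (12.3 to 14.2) in B gave the lowest ratio, 1.32 (1.19 to 1.47). It was the only mitochondrial member under 50 CPM. Whether the counting used strand is not given in the sources used here.

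Complex III passes electrons from ubiquinol to cytochrome c, and its mitochondrial subunit is cytochrome b. mt-Cytb was at 3432 CPM (3414 to 3450) in A and 1959 CPM (1947 to 1971) in B, a ratio of 1.75 (1.74 to 1.77). Complex IV, cytochrome c oxidase, has a catalytic core made of its mitochondrial subunits. mt-Co1, which holds the heme and copper site where oxygen is reduced, was at 4528 and 2409 CPM, a ratio of 1.88 (1.87 to 1.89). mt-Co2, which receives electrons from cytochrome c, was at 4501 and 2986 CPM, a ratio of 1.51 (1.498 to 1.518). mt-Co3, the remaining core subunit, was at 5504 and 3430 CPM, a ratio of 1.60 (1.59 to 1.61). The 3 genes of this core therefore differed from each other by more than their counting intervals.

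In complex V the mitochondrial subunits belong to the membrane-embedded proton channel. mt-Atp6, the channel subunit itself, was at 4353 CPM in A and 2609.5 CPM in B, a ratio of 1.67 (1.66 to 1.68). mt-Atp8, a small subunit beside it, was at 151 CPM (148 to 155) and 75.3 CPM (73.0 to 77.7), a ratio of 2.01 (1.93 to 2.09). All 12 mitochondrial members of at least 50 CPM were past 1.5-fold with A higher, where 32.0% of all features of that level were past it in either direction and 19.0% with A higher. Centred on the median feature 9 were past it, with mt-Nd1 and mt-Co2 at 0.49 and mt-Co3 at 0.58 (log2) under the mark, and 10 were past it with a mitochondrial maximum of 5% or after thinning each cell to 3000 UMIs. 3 were past 2-fold, mt-Nd5, mt-Nd4l and mt-Atp8, beside 7.60% of all features with A higher. Centred on the median feature, only mt-Nd5 stayed past 2-fold at 1.02 (log2), with mt-Nd4l at 0.94 and mt-Atp8 at 0.90. mt-Atp8 also fell just under 2-fold with the 5% maximum (0.99), with at least 4000 UMIs (0.97) and after thinning (0.99). As shares of the mitochondrial sum, mt-Co1 made up 14.0% in A and 12.5% in B and mt-Co2 13.9% and 15.5%, so the makeup of the sum shifted little beside its size. Cells that met neither rule lay between A and B for all 13 genes, for example at 3644 CPM for mt-Co1.

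**Figure D2:**
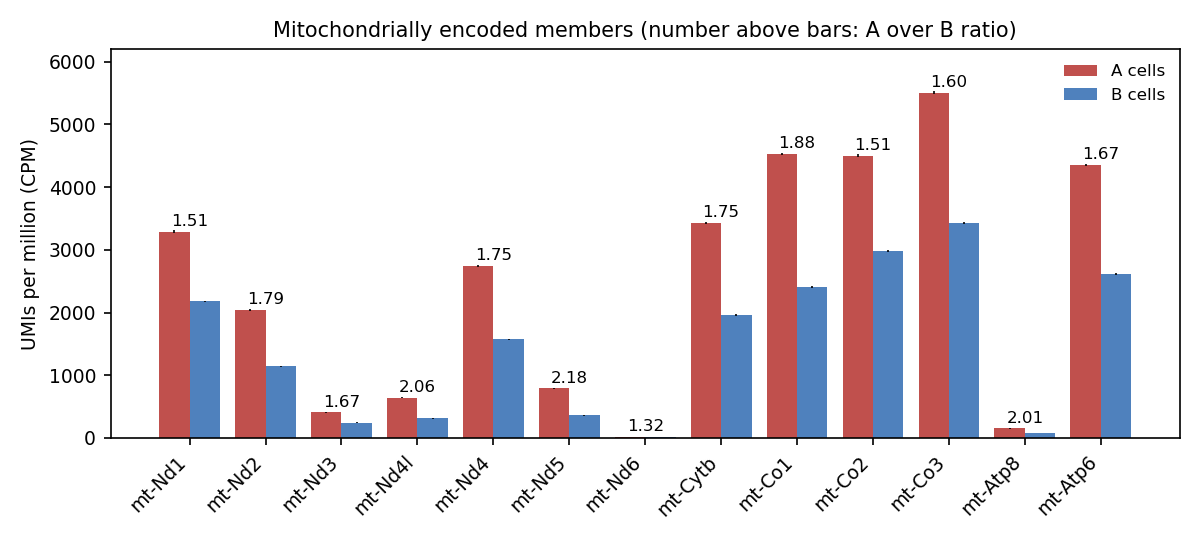
Level of each mitochondrially encoded member (CPM, linear axis) in A cells (red) and B cells (blue), with exact counting intervals too narrow to see on most bars and the A over B ratio printed above each pair. Ratios run from 1.32 for mt-Nd6 to 2.18 for mt-Nd5, and every A bar is the higher.

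In 2 places, neighbouring mitochondrial genes overlap and are carried on a shared message, so their UMIs cannot be fully told apart. The ends of the GENCODE M21 transcripts are shown because these pairs hold 2 of the 3 members past 2-fold. Both of these, mt-Nd4l and mt-Atp8, fell under 2-fold when centred on the median feature. Each line gives 60 bases, 5′ to 3′, with the shared bases in capitals.
mt-Nd4l end: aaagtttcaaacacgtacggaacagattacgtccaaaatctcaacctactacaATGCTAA
mt-Nd4 start: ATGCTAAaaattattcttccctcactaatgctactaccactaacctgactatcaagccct
mt-Atp8 end: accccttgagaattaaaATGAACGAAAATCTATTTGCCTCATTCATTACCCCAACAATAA
mt-Atp6 start: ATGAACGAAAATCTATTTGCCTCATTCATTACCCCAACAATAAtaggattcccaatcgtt

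The shared stretch is 7 bases for mt-Nd4l and mt-Nd4 and 43 bases for mt-Atp8 and mt-Atp6. In both pairs the upstream gene, whose 3′ end lies inside the message, had the higher ratio, 2.06 against 1.75 and 2.01 against 1.67. The transcripts of mt-Co3, mt-Cytb and mt-Nd4 end 1 base past a whole codon in this annotation, where the tail added to the message completes the stop codon.

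The nuclear genes of complex I were slightly higher in A as a sum. The 7 core subunits, which carry the flavin and iron-sulfur clusters, summed to 982 CPM (972 to 992) in A and 901 CPM (893 to 909) in B, a ratio of 1.09. The 30 other subunits summed to 7413 and 6748 CPM, a ratio of 1.10, and Ndufa7, the one with the most UMIs, was at 603 and 507 CPM. Single genes spread far wider than these sums. Ndufv3, a subunit of the NADH-binding tip, was at 206 CPM (202 to 211) in A and 113 CPM (110 to 116) in B, the highest nuclear ratio, 1.83 (1.77 to 1.89). Ndufab1, the mitochondrial acyl carrier protein, was at 481 and 277 CPM, a ratio of 1.74 (1.70 to 1.78). Ndufv2, an iron-sulfur subunit of the tip and the core gene with the most UMIs over both types, was at 239 and 141 CPM, a ratio of 1.69 (1.64 to 1.75). Members of the same module also went the other way. Ndufv1, which binds NADH and flavin beside Ndufv2, was at 65.2 CPM (62.7 to 67.7) in A and 95.6 CPM (93.0 to 98.3) in B, or 1.47-fold higher in B. Ndufa2, another subunit of the tip, was at 292 and 467 CPM, 1.60-fold higher in B.

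Around the 1.5-fold mark, Ndufb10 of the membrane arm stood at 1.52 (437 and 287 CPM) and Ndufs3, a core subunit of the matrix arm, at 1.51 (110 and 72.9 CPM). Ndufc2, of the membrane arm, stayed just under it at 1.49 (254 and 170 CPM). The 8 assembly factors named Nduf, which build the complex without staying in it, summed to 359 CPM in A and 346 CPM in B, a ratio of 1.04. The 3 of them with at least 50 CPM were all lower in A, with a median of -0.26 (log2), and the one with the most UMIs, Ndufaf8, was at 79.1 and 84.3 CPM. The others, under that level in both types, were all higher in A, with ratios from 1.22 (Ndufaf3) to 1.80 (Ndufaf7).

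Complex II, succinate dehydrogenase, has no mitochondrial gene and was slightly lower in A. Its 4 subunits summed to 528 CPM (521 to 535) in A and 581 CPM (575 to 588) in B, 1.10-fold higher in B. Sdhb, the iron-sulfur subunit, had the widest gap, at 246 and 324 CPM, while Sdha, the flavin subunit, was at 49.5 and 38.6 CPM. Sdhc and Sdhd, the membrane anchors, were at 148 and 135 CPM and at 83.5 and 84.5 CPM.

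The nuclear genes of complex III lay close to level, and cytochrome c was higher in B. The 8 nuclear genes of complex III summed to 2407 CPM in A and 2339 CPM in B, a ratio of 1.03. Uqcr11, with the most UMIs, was at 495 and 517 CPM, and Uqcrc2, a core subunit on the matrix side, was apart from the rest at 165 CPM (161 to 169) and 108 CPM (105 to 111), a ratio of 1.53 (1.47 to 1.58). Its partner Uqcrc1 was at 123 and 117 CPM. Cycs, cytochrome c, the mobile electron carrier that also triggers cell death when released, was at 294 CPM (289 to 300) in A and 350 CPM (345 to 355) in B, 1.19-fold higher in B.

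The nuclear genes of complex IV summed to 6636 CPM (6611 to 6661) in A and 6582 CPM (6560 to 6604) in B, a ratio of 1.01. Cox4i1, a regulatory subunit and the nuclear member with the most UMIs, was at 1278 and 1117 CPM, a ratio of 1.14. Cox8a, a small structural subunit, was at 480 CPM (473 to 487) and 759 CPM (752 to 767), 1.58-fold higher in B. Cox7c, also small and structural, went the other way at 965 and 690 CPM, a ratio of 1.40. Cox7a2l, which joins complexes III and IV into supercomplexes, was at 210 and 177 CPM, a ratio of 1.19.

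Several complex IV subunits have tissue-specific forms, and in both types only the general forms were at more than trace level. Cox6a1 was at 561 CPM in A and 650 CPM in B, and its muscle form Cox6a2 had 0 UMIs in both. Cox6b1 was at 587 and 470 CPM, with 0 UMIs for the testis form Cox6b2. Cox7b was at 305 and 276 CPM, with 0 UMIs for Cox7b2. Cox8c had 0 UMIs and the muscle form Cox8b had 1 UMI in A and 0 in B. A count of 0 allows up to 3 UMIs, or 0.0745 CPM in A and 0.0568 CPM in B. Of the forms that were counted, the lung form Cox4i2 had 7 and 11 UMIs, and the muscle form Cox7a1 had 67 and 87 UMIs, or 1.66 and 1.65 CPM, beside 341 and 421 CPM for Cox7a2. Ndufa4, named for complex I but a subunit of complex IV, was at 688 and 783 CPM, and its hypoxia-linked paralogue Ndufa4l2 had 1 and 2 UMIs. Cox6c, which has no second form among the members, was at 596 and 585 CPM.

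Complex V, the ATP synthase, had nuclear genes that summed to 8323 CPM (8295 to 8352) in A and 8410 CPM (8385 to 8435) in B, a ratio of 0.990. In its catalytic head, Atp5a1 (the alpha subunit) was at 252 CPM (247 to 257) in A and 386 CPM (381 to 392) in B, 1.53-fold higher in B. Atp5b (beta, which holds the catalytic sites) was at 546 and 622 CPM. Atp5c1 (gamma, the rotating stalk) was at 389 CPM (383 to 395) and 240 CPM (236 to 244), a ratio of 1.62 (1.58 to 1.66). Subunits that assemble in fixed proportion in the enzyme thus had transcripts that differed in opposite directions.

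At the membrane end of the enzyme, Atp5md, a small subunit that links synthase dimers, was at 229 CPM (224 to 233) in A and 399 CPM (394 to 405) in B. It was 1.74-fold higher in B, the lowest A over B ratio of the nuclear members. Atp5j2, the f subunit, was at 496 and 688 CPM, 1.39-fold higher in B. Atp5j, a subunit of the outer stalk and the nuclear gene of the complex with the most UMIs, was at 922 and 817 CPM. The rotor ring is made by 3 genes for the same mature protein, and all 3 were higher in A, Atp5g1 at 616 and 487 CPM, Atp5g2 at 756 and 701 CPM, and Atp5g3 at 382 and 269 CPM. The inhibitor of the enzyme, listed as Atpif1 and outside the members, was at 386 and 336 CPM. The copies among the members, Cox5b-ps, Ndufb4b and Ndufb11b, summed to 10.5 and 11.4 CPM, and genes with near-identical copies, such as Ndufb4, are uncertain where reads could fall on either.

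Of the 81 nuclear members with at least 50 CPM, 7 were past 1.5-fold with A higher, 4 with B higher, and 70 within it. That is 13.6% past the mark in either direction, beside 32.0% of all features, of which 19.0% had A higher and 13.1% had B higher. No nuclear member was past 2-fold, beside 14.3% of all features, 7.60% with A higher and 6.68% with B higher. Centred on the median feature, the split was 4 with A higher and 5 with B higher. The median nuclear member was at 0.02 (log2), and the middle 50% of members spanned 0.44, against 0.73 for all features. Nuclear members therefore spread less than the average feature did, while mitochondrial ones were displaced together.

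**Figure D3:**
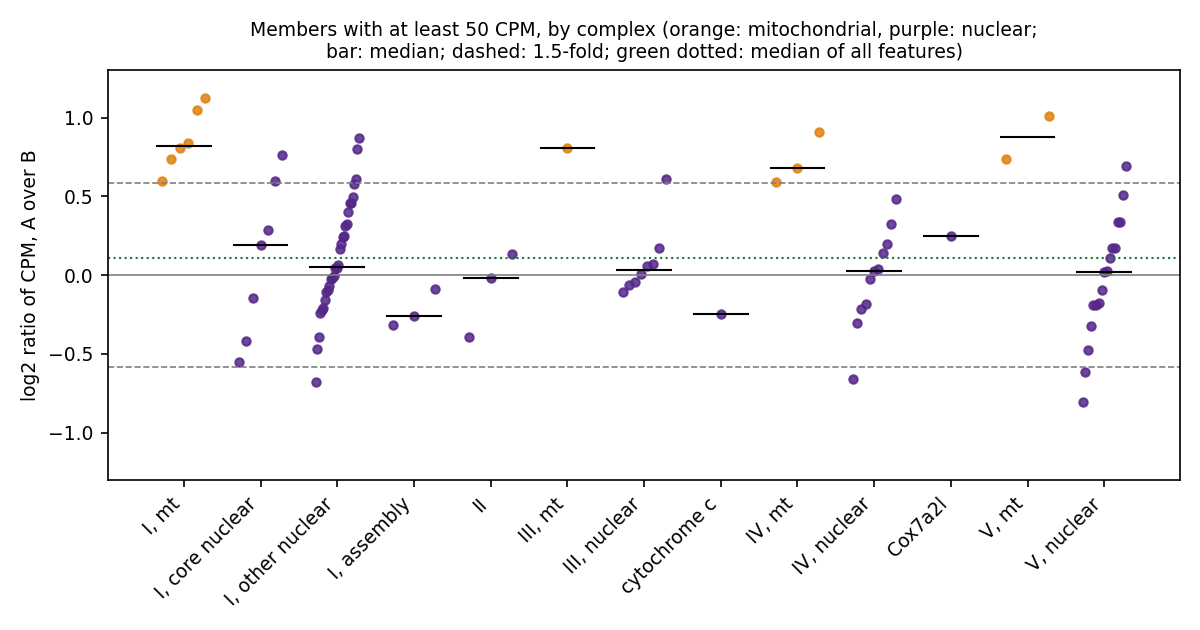
Log2 ratio A over B (y axis) of every member with at least 50 CPM in A or B, by complex and genome (x axis), in orange for mitochondrial and purple for nuclear genes, with bars at the medians, dashed lines at the 1.5-fold marks and a green dotted line at the median of all features. All 12 mitochondrial members lie above the upper mark, and 70 of 81 nuclear members lie between the marks.

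The balance of the genomes followed within each shared complex. The mitochondrial sum over the nuclear sum was 1.18 in A and 0.761 in B for complex I, 1.43 and 0.837 for complex III, 2.19 and 1.34 for complex IV, and 0.541 and 0.319 for complex V. Over all members it was 1.19 in A and 0.729 in B.

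Promoter letters were read for the nuclear members. Nuclear respiratory factor NRF1, ETS factors (GABP among them), YY1 and the estrogen-related receptors are known activators of respiratory genes. Promoters were taken from RefSeq (GRCm38.p6), 250 bases before to 50 after the start, for the 79 of 98 nuclear members in the table. GCGCNTGCG, an NRF1 motif, was found on either strand in 27 of 79 member promoters (34.2%) and in 7.12% of 27025 genes. AAGATGGCG (YY1) was in 10.1% and 1.64%, CCGGAAGT (ETS) in 6.33% and 4.31%, and TCAAGGTCA (estrogen-related receptors) in 2.53% and 0.466%. Each motif was counted on its own, whether or not it overlapped another. Members of at least 50 CPM with the NRF1 motif numbered 25, at -0.80 to 0.70 (log2) with a median of 0.02, and 44 without it lay at -0.66 to 0.87 with a median of -0.00. The ratios with and without it thus covered nearly the same range. The windows below, all on the minus strand and written 5′ to 3′ with the motif in capitals, show it in members on both sides and near level.
Atp5md, chr19:47090821-47090859: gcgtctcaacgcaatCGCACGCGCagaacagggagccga
Cycs, chr6:50566607-50566645: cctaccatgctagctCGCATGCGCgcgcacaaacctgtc
Cox6a1, chr5:115349097-115349135: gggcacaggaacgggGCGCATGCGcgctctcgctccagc
Atp5g2, chr15:102671066-102671104: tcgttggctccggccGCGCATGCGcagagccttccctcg
Ndufb10, chr17:24724426-24724464: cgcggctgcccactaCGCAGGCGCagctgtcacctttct

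The motif ended 18 bases from the start site in Ndufb10 and 189 bases from it in Atp5md. Its position was not compared with the ratios over the members that hold it. A match is a run of letters in this window and no measure of binding.

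Direction among the nuclear members went with the chromosome on chromosomes 2, 7, 8, 16, 17, 18 and 19. Chromosome names were taken from GENCODE M21 by gene identifier, and the counts are of members with at least 50 CPM in A or B. All 22 such members on chromosomes 2, 7, 8, 16 and 17 were higher in A, with a median of 0.43 (log2), and they held all 7 that were past 1.5-fold with A higher. The 7 such members on chromosomes 18 and 19 were all higher in B, with a median of -0.61, and held all 4 past the mark that way. These chromosomes also differed in other features. Among features that are no members, the median was 0.50 on chromosome 2, 0.52 on chromosome 7, 0.32 on chromosome 8, 0.37 on chromosome 16, 0.33 on chromosome 17, -0.61 on chromosome 18 and -0.58 on chromosome 19. On the other autosomes and X the 52 remaining members, 15 on chromosomes 1, 9 and 15 and 37 elsewhere, held none past the mark, with medians of 0.03 and -0.10. On chromosomes 1, 5, 9, 11 and 15 the member median had the opposite sign to that of the other features. On chromosome 5 these were -0.21 and 0.14, and on chromosome 1 they were 0.05 and -0.10.

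Over the 81 members on 19 chromosomes, Pearson's r between a member's log2 ratio and the median of its chromosome was 0.79 and Spearman's rho 0.66. This is a description, since members on a chromosome share the same median and library. With that median subtracted, the SD over members went from 0.36 to 0.22 and the number past 1.5-fold from 11 to 1. The remaining gene was Atp5j2, at -0.61. Next to it stood Ndufa6, a complex I subunit, at 0.56, and Ndufv3, at 0.54, while Atp5a1 was at -0.00. An earlier analysis of these cells had already shown shifts by chromosome, so the pattern is no independent support for them. DNA copy number was not measured, and its part was not tested.

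**Figure D4:**
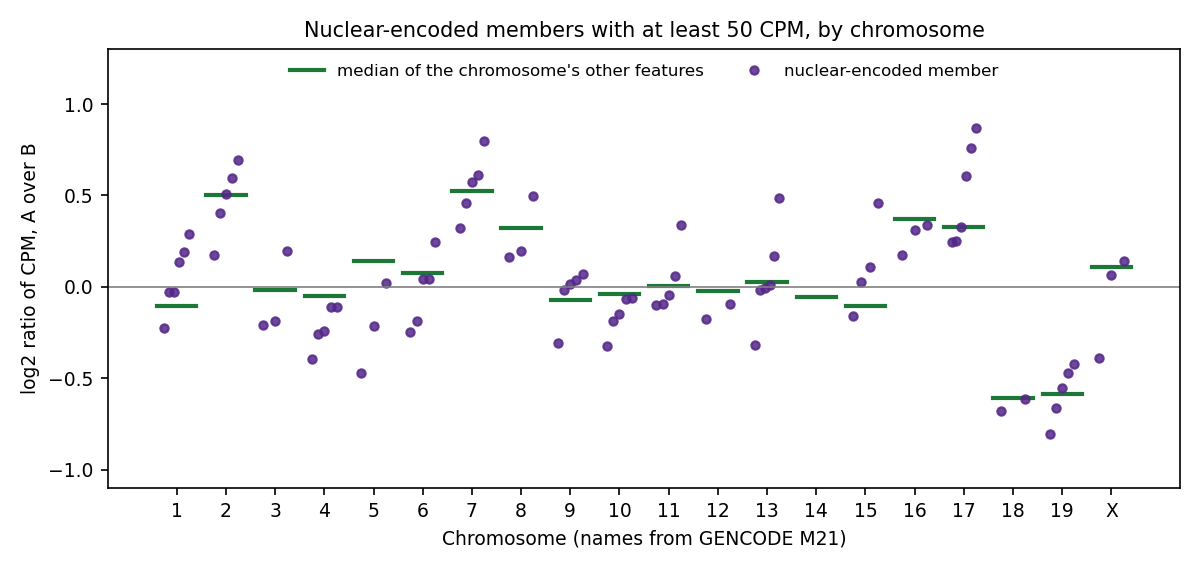
Log2 ratio A over B (y axis) of each nuclear member with at least 50 CPM in A or B, by chromosome (x axis), with a bar at the median of the other features of that chromosome. The members plotted on chromosomes 2, 7, 8, 16 and 17 all lie above 0, and those on 18 and 19 all lie below it.

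Between the marker-gene states of a type, the mitochondrial sum differed less than between the types. A cells rich in Tm4sf20, Epcam and S100g (1142 cells) had a mitochondrial share of 3.59% and a nuclear share of 2.93%, and those rich in Tnc, Acta2 and Ptchd4 (2478 cells) had 3.16% and 2.64%. The ratios of the former over the latter were 1.14 (1.13 to 1.14) and 1.11 (1.10 to 1.12), so both genomes were higher in the same cells and by a like amount. No member of 94 was past 1.5-fold, beside 10.1% of all features. Ndufa6, at 186 and 127 CPM, and Cox7c, at 1228 and 856 CPM, came nearest, and Ndufaf4, an assembly factor of complex I, was lowest at 51.1 and 71.3 CPM. Mitochondrial genes of at least 50 CPM ran from 0.02 (log2) for mt-Nd1 to 0.27 for mt-Atp8, and mt-Nd6, under that level, was at 0.54 (22.9 and 15.7 CPM), above its 0.40 between A and B. The median depth was 4507 UMIs in the first of these sets and 5156 in the other.

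In B cells the sums of both genomes again differed little between states. Cells rich in Krt14 and Sprr1a (541 cells) had shares of 2.02% and 2.81%, and those rich in Areg, Btc and Cftr (4714 cells) had 1.89% and 2.62%, with ratios of 1.07 for both genomes. No member of 93 was past 1.5-fold, beside 4.82% of all features. The mitochondrial genes did not all lean one way here, with mt-Nd3 at 274 and 237 CPM and mt-Nd5 at 342 and 364 CPM. Of these members, all of at least 50 CPM, Ndufa2 was highest at 583 and 445 CPM, Cox8a followed at 930 and 729 CPM, and Ndufs1, the largest core subunit of complex I, was lowest at 39.7 and 53.3 CPM. Every A set and every A depth quartile lay above every B one in mitochondrial share, at 3.16% or more against 2.02% or less.

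Cell-cycle ranges showed small differences. The 10% of cells richest in replication genes, over the 10% poorest, had a mitochondrial ratio of 0.904 in A and 0.985 in B and a nuclear ratio of 0.921 and 0.939. For mitosis genes the mitochondrial ratios were 0.928 and 0.932 and the nuclear ones 0.938 and 0.918. Members thus took a slightly smaller share of UMIs in the cells richest in either gene set. Depth also differed between these ends. For mitosis genes the median was 5315 UMIs in the richest and 3970.0 in the poorest A cells, and 6505 and 4727 in B cells. For replication genes it was 4269 and 4748 in A, and 5036 and 5556 in B. The part of depth was not tested.

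**Figure D5:**
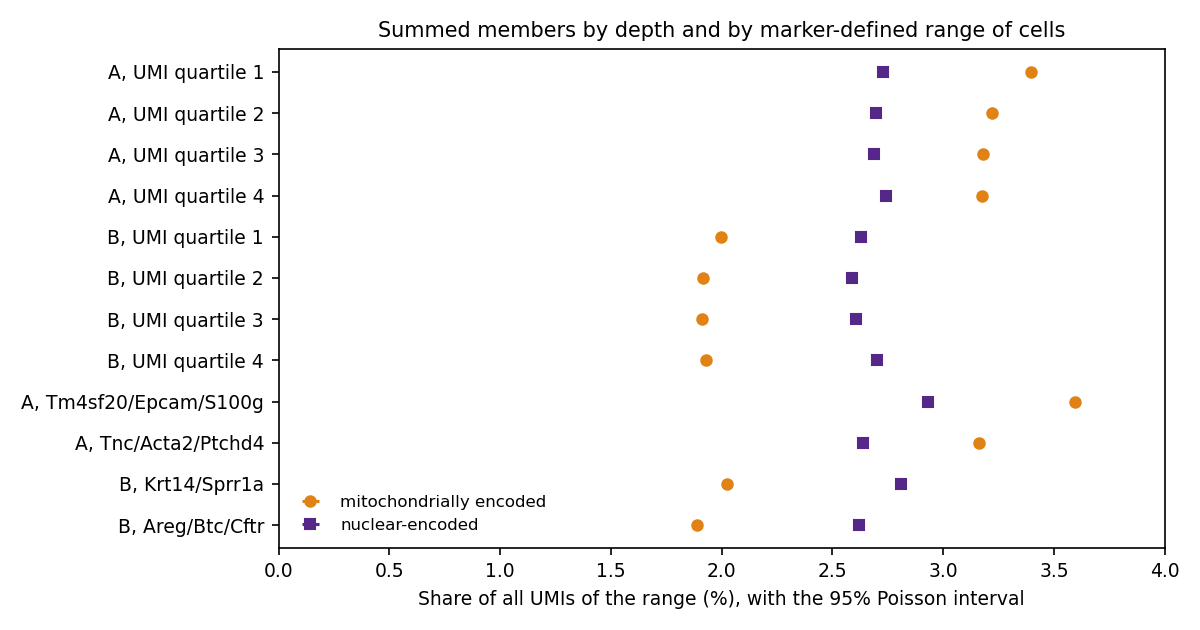
Summed mitochondrial (orange circles) and nuclear (purple squares) members as a share of UMIs (x axis, percent) by quartile of UMIs per cell and by marker-gene state in A and B cells, with exact intervals smaller than the points. Mitochondrial shares are 3.16% or more in the A rows and 2.02% or less in the B rows, while nuclear shares overlap.

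Cells also differed more in mitochondrial than in nuclear members once depth was set equal. After thinning to 3000 UMIs, which kept 7406 A cells and left out 410, and kept 8827 B cells and left out 109, the variance over the mean of the mitochondrial sum was 5.86 in A and 3.23 in B. That of the nuclear sum was 1.83 and 1.82. Variance over mean can rise with the mean. The mitochondrial mean was 99.5 UMIs in A and 60.6 in B, with SDs of 24.1 and 14.0. Relative to the mean, the mitochondrial spread was thus alike in A and B. Over cells, the mitochondrial sums of complexes I and IV had a Pearson's r of 0.54 in A and 0.34 in B (Spearman's rho 0.43 and 0.26). Between the mitochondrial and the nuclear sum, r was 0.09 in A and 0.10 in B, close to 0 in both types. Between the mitochondrial and the ribosomal protein sum, r was -0.40 and -0.17 (rho -0.30 and -0.12). The cells share a library and the sums share a fixed total, so these values are descriptions.

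Genes that make and serve the respiratory chain were taken from lists. Of genes acting on mitochondrial DNA and its RNA, 2 of 8 with at least 50 CPM were past 1.5-fold with A higher and 0 with B higher, beside the 19.0% and 13.1% of all features. Hsd17b10, a part of the enzyme that cuts mitochondrial transcripts, was highest at 141 and 65.6 CPM, and Slirp, which protects mitochondrial messages, was lowest at 124 and 138 CPM. Lrpprc, the partner of Slirp, at 86.0 and 52.1 CPM, and Tfam, which packs and transcribes the mitochondrial genome, at 74.2 and 63.1 CPM, were chosen after their values were seen. This list as a sum was 1.22-fold higher in A, beside 1.68 for the mitochondrial members.

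Of 16 regulators, 4 had at least 50 CPM and 0 were past 1.5-fold, beside 32.0% of all features either way. They ran from Hif1a, the hypoxia factor, at 156 and 117 CPM to Yy1 at 159 and 169 CPM. Ppargc1a, the coactivator of mitochondrial biogenesis, was under that level in both, at 32.7 and 12.1 CPM, a ratio of 2.71 (2.46 to 2.98), and was chosen after its values were seen. Of the mitochondrial ribosome, which translates the 13 mitochondrial members, 8 of 70 genes were past 1.5-fold with A higher and 4 with B higher, beside 19.0% and 13.1% of all features. Mrps6, at 414 and 152 CPM, and Mrpl43, at 72.3 and 128 CPM, were its extremes, and its sum had a ratio of 1.07.

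Assembly factors with names outside the members had 2 of 15 past 1.5-fold with A higher and 0 with B higher, where all features had 19.0% and 13.1%. Cox16, a complex IV factor, was at 213 and 90.05 CPM, and Higd1a, a hypoxia-induced partner of complex IV, was at 124 and 174 CPM. In the tricarboxylic acid cycle and pyruvate dehydrogenase, which supply the electrons, 3 of 14 were past the mark with A higher, close to the 19.0% of all features, and 0 with B higher. Idh2, the NADP-dependent isocitrate dehydrogenase, was at 135 and 47.4 CPM, a ratio of 2.85, while Idh3a, a subunit of the NAD-dependent enzyme, was at 52.3 and 65.0 CPM. Of ubiquinone synthesis and its donors, 1 of 7 was past the mark each way, Etfb (electron transfer flavoprotein, 305 and 196 CPM) and Coq10b (a ubiquinone-binding protein, 43.9 and 97.9 CPM).

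Past the mark, the 19.0% of all features with A higher and the 13.1% with B higher again stand beside the counts that follow. The carriers and pores had 3 of 9 with A higher and 0 with B higher, from Slc25a12, the aspartate and glutamate carrier, at 69.1 and 20.6 CPM to Vdac2, an outer membrane pore, at 277 and 391 CPM. Import and chaperone genes had 3 of 26 with A higher and 2 with B higher, from Timm10b at 245 and 127 CPM to the protease Afg3l2 at 33.0 and 56.9 CPM. Mitochondrial antioxidants had the lowest A over B ratio of these sums, 0.706, with 1 of 6 genes past the mark with A higher and 2 with B higher. Sod2, the superoxide dismutase of the matrix, was higher in A at 134 and 84.1 CPM, and Prdx5, a peroxiredoxin, was higher in B at 89.1 and 231 CPM. The lists that serve the chain thus had sums from 0.706 to 1.22 in A over B, and each lay below the mitochondrial ratio of 1.68. Genes of these lists are not set beside the median of their chromosome here. The part of the chromosome in their ratios was not tested.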

How the data were processed

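The 10x 3′ v4 library was deposited as whole-number UMI counts per gene and barcode, written by Cell Ranger 8.0.1 per the file headers, with build GRCm39 per the submitters' processing notes. The annotation used for counting, its strand setting and any filter on barcodes are not given in the sources used here. A barcode passed with 2000 UMIs, 1000 genes and no more than 15% of UMIs from mitochondrial genes. The reported values keep all doublets. As an alternative, Scrublet in scanpy 1.11.5 at a rate of 0.08 marked 784 kept cells, or 3.67% (3.42 to 3.93%): 147 A, 215 B and 422 in neither. No barcode was repeated in the 1 library.

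Counts were summed over A and over B cells and scaled to CPM. Sums have exact Poisson intervals, shares exact Clopper-Pearson intervals and ratios exact conditional binomial intervals (scipy 1.17.1). In place of a test, features with at least 50 CPM in A or B were called past 1.5-fold or 2-fold. Of 33696 features, 31961 matched GENCODE M21 by identifier, with 99.7% of the UMIs, and 110 of 111 members matched. That annotation is on another build than the counts, so only chromosome names and transcript sequences were used from it. Steps were tested on simulated data.

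Genes named by rule were all mitochondrial members, the most abundant nuclear member of each group, the 6 highest and 6 lowest nuclear ratios, all alternative isoforms, and the highest and lowest of each list. Other genes were named after their values were seen. The members and lists were chosen with earlier results of these data known. Alternatives changed the cell filter, the marker rule, the denominator, the level minimum and the fold.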

Additional observations from a re-analysis of the deposited data

Results flagged for a closer look

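Barcodes that the filter removed held signal outside the comparisons. In the 271 barcodes over 15% mitochondrial UMIs, with a median of 814 UMIs, the mitochondrially encoded members took 20.4% of the UMIs and the nuclear members 0.684%. By their markers, 145 of these barcodes were A and 6 were B, and 15 of them passed the UMI and gene minimum, 13 A and 0 B. Kept cells with no marker UMI numbered 1339, with a median depth of 3961 UMIs and a median mitochondrial share of 2.86%, between the medians of A and B cells. Their median nuclear share was 2.71%. Cells with 1 marker UMI had median mitochondrial shares of 3.16% for an A marker and 1.95% for a B marker.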

How the results depend on the processing

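No paired analysis was possible because the analysed data are 1 library, with 1 sample a group. No replicate could be left out for the same reason. The mitochondrial ratio of 1.68 stayed above 1 in all 12 alternatives, each of which moved it by more than its narrow counting interval. It was 1.69 with no mitochondrial maximum, 1.65 with a maximum of 5%, 1.66 with at least 4000 UMIs, 1.70 without marked doublets, 1.67 with at least 1 marker UMI, 1.72 with at least 5, 1.70 with 10 times the other markers, 1.70 over nuclear genes, 1.69 without mitochondrial and ribosomal protein genes, 1.56 centred on the median gene, 1.69 as a mean over cells and 1.64 after thinning. The nuclear ratio of 1.03 was 1.02 with at least 4000 UMIs, 1.02 with at least 5 marker UMIs, 1.04 over nuclear genes, 1.04 without mitochondrial and ribosomal protein genes, 1.03 as a mean over cells and 1.03 after thinning, and it turned below 1, to 0.954, when centred on the median gene. Members past 1.5-fold, 23 as reported beside 32.0% of all features, numbered 18 when centred (30.5% of all features), 26 with a minimum of 10 CPM (36.5%), 27 with no minimum (50.6%) and 21 to 25 in the other alternatives at that fold, and 3 at 2-fold. The mitochondrial genes of at least 50 CPM past 1.5-fold numbered 9 when centred, 10 with the 5% maximum and after thinning, 11 with at least 1 marker UMI, and 12 in the others at that fold. The signs of members of at least 50 CPM on chromosomes 2, 7, 8, 16, 17, 18 and 19 held in all 12. Of 46 members followed through the alternatives, Cox4i2, Cox6c, Cox7a1 and Ndufa4l2 changed sign in at least 1. Members that were not followed and lay between 0 and 0.11 (log2), such as Uqcrc1, turn below 0 when centred. Near 0, low counts limit the isoforms named, and no alternative speaks to the spread between cultures.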
